A study of Mus musculus with 6 samples.

Results

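The unfolded protein response was examined through a list of 32 genes, which holds endoplasmic reticulum (ER) chaperones, genes of ER-associated degradation (ERAD), the stress sensors with their transcription factors, and targets of ATF4. A gene was taken up where a probeset of the array carried its symbol and no other. All 32 had such a probeset and lay above the limit on dim signal, among 14994 genes tested.

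The RNA came from KSL SLAM cells, sorted from bone marrow to enrich for blood stem cells. They carry c-Kit, Sca-1 and CD150 and lack lineage markers, CD48 and CD41. Mice received granulocyte colony-stimulating factor (G-CSF, the growth factor of neutrophil production) at 125 mcg/kg subcutaneously, 2 times a day, or PBS, for 7 days. Each treatment gave 3 MoGene 1.0 ST arrays, and each array held an independent pool of cells from 5 to 10 mice. The sources used here do not state strain, age or sex, or how often PBS was injected.

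The unfolded protein response adjusts the folding capacity of the ER to its load of new proteins. The kinase and nuclease IRE1 (Ern1) splices the Xbp1 message, ATF6 is cut to release a transcription factor, and PERK (Eif2ak3) phosphorylates eIF2 alpha, which slows translation while favouring that of Atf4. XBP1 and ATF6 are known to drive chaperone and ERAD genes, and ATF4 drives genes of amino acid supply and stress signalling. Blood stem cells are known for low protein synthesis, while developing granulocytes fill granules with proteins folded in the ER, where calreticulin and calnexin bind the myeloperoxidase precursor.

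The question put to these genes was whether stem cell fractions of treated and untreated mice differ in any branch of the response. Chaperones and folding enzymes leaned to higher signal with G-CSF, as 13 of 14 had a positive difference, with a median of 0.27 on the log2 scale. ERAD genes leaned neither way, with 3 of 7 positive and a median of -0.05. Sensors and transcription factors were mixed, with 3 of 5 positive and a median of 0.14, and 5 of the 6 ATF4 targets had a negative difference, with a median of -0.14. With 1 array left out, the median ran from 0.26 to 0.46 for chaperones, from -0.19 to 0.00 for ERAD genes, from 0.02 to 0.23 for sensors and factors and from -0.20 to 0.00 for ATF4 targets. The ATF4 value of 0.00 was that without G-CSF replicate 2, when Ddit3 (0.04) and Sesn2 (0.03) were positive, and without G-CSF replicate 1 it was -0.04. The sensor value of 0.02 was that without PBS replicate 3 or G-CSF replicate 2. All genes tested had a median of 0.00 and 50.3% positive differences. A difference is always the mean log2 intensity of the G-CSF arrays minus that of the PBS arrays.

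None of the 32 passed limma at an adjusted p under 0.05, the smallest being 0.635 (Dnajc3), against 0.0267% of all genes that did. At an unadjusted p under 0.05, 5 members were higher (Calr, Pdia4, Dnajc3, Xbp1 and Chac1) and 0 lower, that is 5 of 32 beside 2.73% of all genes for higher and 3.30% for lower. In 6 members every G-CSF array lay above every PBS array (Hsp90b1, Calr, Pdia4, Dnajc3, Sdf2l1 and Chac1), beside 5.77% of all genes. The reverse held in Sel1l and Trib3, beside 5.05% of all genes. The unadjusted 95% intervals of the 32 differences ended at most at 2.50-fold higher (Sdf2l1) and began at the lowest at 0.302-fold (Atf6). They were narrower in other genes, such as 0.960 to 1.56-fold in Hsp90b1, and 5 of them, those of the 5 genes with an unadjusted p under 0.05, did not include 1.0.

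**Figure D1:**
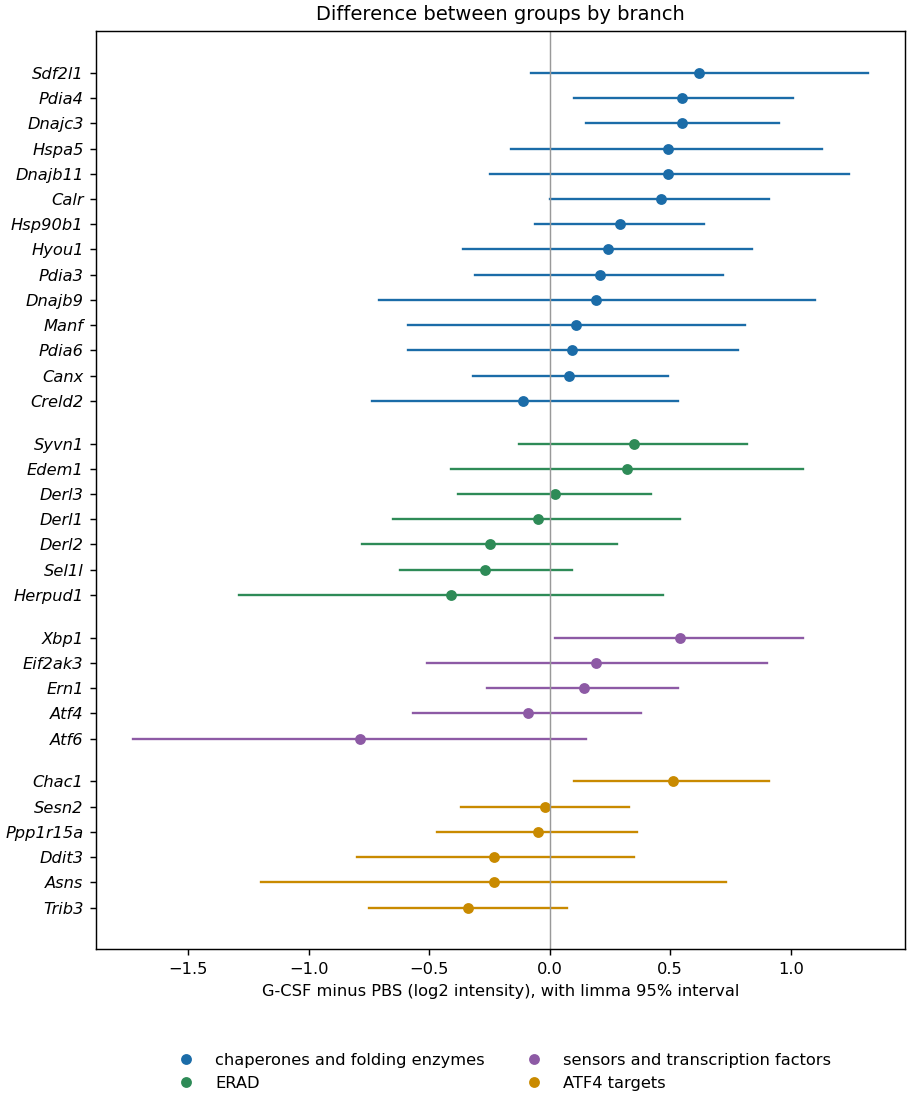
Difference in log2 intensity, G-CSF minus PBS, for the 32 genes (points) with limma's unadjusted 95% intervals (lines), ordered by size within each branch and coloured by branch. Of the chaperones only Creld2 lies left of 0, while 5 of the 6 ATF4 targets do.

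The 6 arrays had median intensities of 56.2 to 61.7. Their rank correlations (Spearman's rho across the 14994 genes) ran from 0.861 to 0.895 inside a treatment and from 0.836 to 0.892 across treatments. Stem cell markers were measured in both groups (9 with a probeset, summed linear intensity 5278 to 6353 with PBS and 3939 to 5318 with G-CSF). With G-CSF 8 of 9 were lower on average, with a median difference of -0.22, and Hoxb5 was higher (0.16). Only Kit, at 10.01 and 9.04 mean log2 intensity, was lower without overlap, beside 5.05% of all genes. Neutrophil markers were present in every array, and 13 of 14 were higher with G-CSF without overlap, beside 5.77% of all genes. The exception was Ly6g, which overlapped (difference -0.19). The summed intensity of the 14 was 9990 to 17668 with PBS and 30585 to 38494 with G-CSF. Of the progenitor markers of granulocytes and monocytes, 8 of 9 were higher without overlap, and Gstm1 overlapped (difference -0.37). Their summed intensity was 1045 to 1682 with PBS and 2614 to 6874 with G-CSF. Markers of plasma cells and B lymphocytes, cells known for a large ER, stayed between 419 and 456 with PBS and between 425 and 433 with G-CSF (10 with a probeset, 5 above the limit on dim signal). The summed intensity of megakaryocyte and platelet markers was 492 to 648 with PBS and 397 to 430 with G-CSF, but of 6 genes only Pf4 was lower without overlap, and Itgb3 was higher. That of erythroid markers was 879 to 1454 against 704 to 864, with only Car2 lower without overlap among 5 genes tested. What part these cells had in the differences below was not tested, and in bulk RNA a change in the number of cells and one in RNA per cell cannot be told apart.

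Chaperones of the ER lumen came first. Hspa5, which encodes the master chaperone BiP, was at 10.11, 9.34 and 10.04 in the PBS arrays and at 10.03, 10.19 and 10.71 in the G-CSF arrays. The groups overlapped, and the spread came from a low PBS replicate 2 and a high G-CSF replicate 3 (difference 0.49, SE 0.27, limma adjusted p = 0.932). Without PBS replicate 2 the difference of Hspa5 was 0.24. Hsp90b1, the ER form of HSP90 (GRP94), measured 10.96, 10.92 and 11.15 with PBS and 11.33, 11.21 and 11.37 with G-CSF. Its groups did not overlap, but the difference was small (0.29, SE 0.15, adjusted p = 0.884), a 1.22-fold change.

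Calr encodes calreticulin, a lectin chaperone of glycoproteins. Its PBS arrays lay close together at 9.59, 9.55 and 9.52, and the G-CSF arrays followed at 9.77, 10.37 and 9.89, all of them higher. The difference was 0.46 (SE 0.19, adjusted p = 0.822), and 0.28 without G-CSF replicate 2. Canx, the membrane-bound partner calnexin, overlapped between groups, with means of 10.75 ± 0.18 and 10.84 ± 0.17 (SD, n = 3 per group). Hyou1, the large HSP70-like chaperone GRP170, had a mean of 6.89 ± 0.47 with PBS and 7.13 ± 0.17 with G-CSF, also overlapping.

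Among the co-chaperones of BiP, Dnajc3 (p58IPK, which also restrains PERK) differed most clearly. It was at 8.57, 8.65 and 8.58 with PBS (SD 0.04) and at 8.97, 9.42 and 9.06 with G-CSF (SD 0.24), without overlap. The difference was 0.55 (SE 0.17, 1.46-fold, adjusted p = 0.635), the smallest p of the list, and 0.41 without G-CSF replicate 2. The array holds 2 probesets with that symbol, and their values were identical in each array, so they count once. Dnajb11 (ERdj3) was at 7.45, 7.80 and 7.74 with PBS and 7.62, 8.87 and 7.99 with G-CSF. Its difference was 0.49 (SE 0.32), and 0.14 without G-CSF replicate 2. Sdf2l1, which forms a complex with that co-chaperone, had the largest positive difference of the list, 0.62 (SE 0.30, adjusted p = 0.863). Its arrays read 6.65, 6.75 and 6.78 with PBS and 6.84, 8.03 and 7.17 with G-CSF, which again placed G-CSF replicate 2 far above the rest. Without that array the difference of Sdf2l1 was 0.28, below those of Pdia4 (0.63) and Chac1 (0.62). Centring each array on its median made the groups of Sdf2l1 overlap. Dnajb9 (ERdj4), a target of XBP1, ran from 6.94 to 7.77 with PBS and from 6.79 to 8.20 with G-CSF.

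Protein disulfide isomerases form and rearrange disulfide bonds, and all 3 had positive differences, of 0.55 (Pdia4), 0.21 (Pdia3) and 0.09 (Pdia6). Pdia4 was at 6.91, 6.56 and 7.06 with PBS and at 7.35, 7.24 and 7.61 with G-CSF, without overlap (difference 0.55, SE 0.19, adjusted p = 0.734). A second, dim Pdia4 probeset, at 4.92 with PBS and 4.74 with G-CSF on average, lay below the limit on dim signal with overlapping groups, and no direction was read from it. Pdia3, which works with calnexin and calreticulin, had means of 9.17 ± 0.37 and 9.37 ± 0.16, and Pdia6 had 7.76 ± 0.29 and 7.86 ± 0.53 (SD, n = 3). Both overlapped between groups. The ER stress-inducible secreted factor Manf (7.61 ± 0.56 and 7.72 ± 0.27) overlapped as well. So did Creld2, also a secreted ER stress protein (7.47 ± 0.45 and 7.37 ± 0.30), the 1 chaperone-branch gene with a negative difference, of -0.11.

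**Figure D2:**
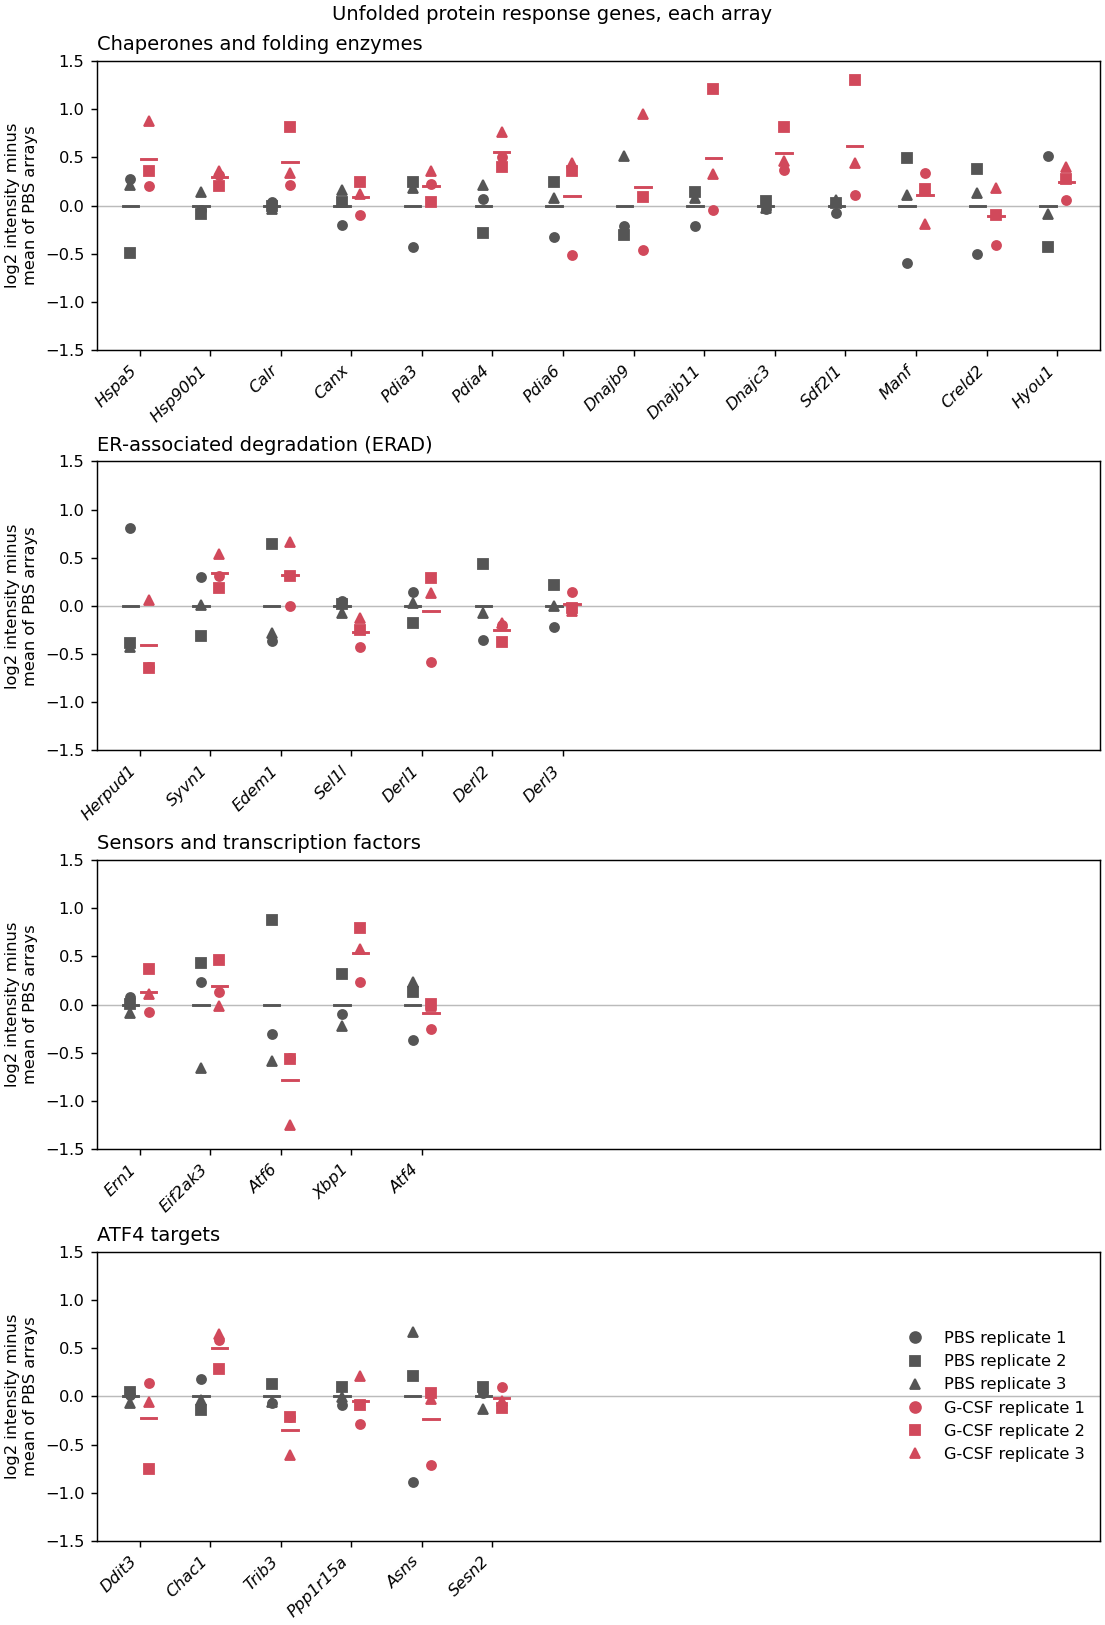
Log2 intensity of each gene in each array, minus the mean of the 3 PBS arrays, by branch. Grey marks PBS and red G-CSF, marker shapes give the replicate number and short lines are group means. Squares in red, G-CSF replicate 2, stand highest for Calr, Dnajb11, Dnajc3 and Sdf2l1, and the grey square of Atf6 lies far above the other arrays.

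The lean of the chaperone branch depended on the arrays. G-CSF replicate 3 was the highest array in 6 of the 14 genes and replicate 2 in 5, while G-CSF replicate 1 was highest in 0. PBS replicate 1 was the lowest array in 7 of them. The median over the 14 genes of the deviation from each gene's own mean was -0.30, -0.23 and -0.02 in the PBS arrays and -0.05, 0.14 and 0.23 in the G-CSF arrays, so PBS replicate 3 and G-CSF replicate 1 overlapped. Without PBS replicate 1, 9 of 14 chaperones were positive, and without G-CSF replicate 1 the branch median was 0.46. Leaving out G-CSF replicate 1 also raised the members whose groups did not overlap from 6 to 11, with 10.7% of all genes then in that class, and added Hspa5, Pdia6, Dnajb11, Ern1 and Xbp1. Progenitor marker signal of granulocytes and monocytes was 3222, 6874 and 2614 in G-CSF replicates 1, 2 and 3, and neutrophil marker signal 30585, 38494 and 34387, while the summed chaperone intensity was 8500, 10024 and 10131. Of the 3, replicate 3 had the highest chaperone sum and the lowest progenitor sum, and replicate 1 the lowest chaperone and neutrophil sums. With PBS the sums were 1045 to 1682 (progenitor), 9990 to 17668 (neutrophil) and 7297 to 8439 (chaperone), each below every G-CSF array. The part of these cells in the chaperone values was not tested.

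**Figure D3:**
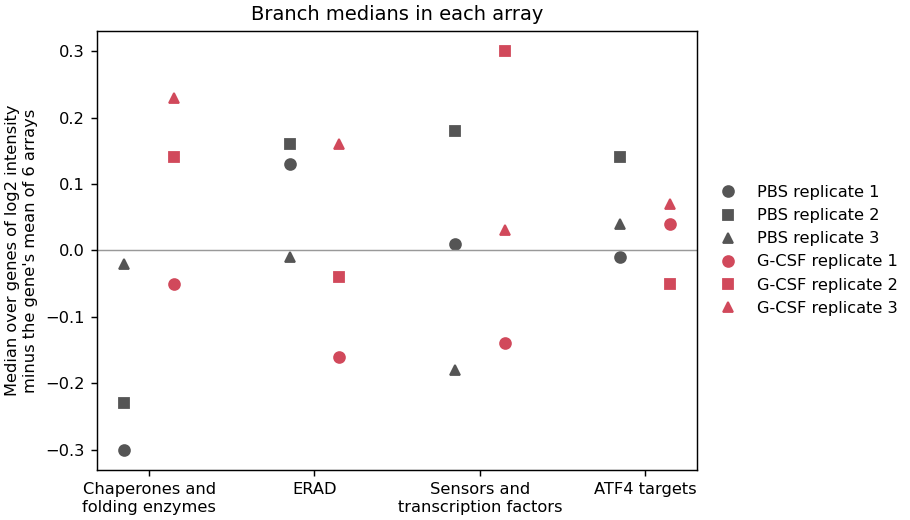
Median over the genes of a branch of the deviation of log2 intensity from each gene's mean of 6 arrays, 1 point per array, in grey for PBS and red for G-CSF. In the chaperone branch the arrays run from -0.30 (PBS replicate 1) to 0.23 (G-CSF replicate 3), and in the ATF4 branch both treatments lie within -0.05 to 0.14.

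Promoter sequences were searched for the elements known from this response. The ER stress element, CCAAT and CCACG with 9 bases between them, is the site known to bind NF-Y together with ATF6 or XBP1. RefSeq promoter windows (GRCm38.p6, 250 bases before to 50 after the annotated start) were available for 28 members, leaving Manf, Hyou1, Derl1 and Atf6 without one. An exact match on either strand was found in 9 of the 28, beside 0.119% of 32851 windows of all genes. By branch these were 7 of 12 chaperones (Hspa5, Hsp90b1, Calr, Canx, Dnajc3, Pdia6 and Creld2), 2 of 6 ERAD genes (Syvn1 and Derl3) and 0 of 6 ATF4 targets. The windows printed here belong to 4 chaperones and show how the element is placed; they are the 250 bases before the start, 5′ to 3′ on the gene's strand, with the element in capitals. They lie at chr2:34771840-34772089 (plus strand, Hspa5), chr10:86705445-86705694 (minus, Hsp90b1), chr8:84846932-84847181 (minus, Calr) and chr14:118937682-118937931 (plus, Dnajc3).
Hspa5: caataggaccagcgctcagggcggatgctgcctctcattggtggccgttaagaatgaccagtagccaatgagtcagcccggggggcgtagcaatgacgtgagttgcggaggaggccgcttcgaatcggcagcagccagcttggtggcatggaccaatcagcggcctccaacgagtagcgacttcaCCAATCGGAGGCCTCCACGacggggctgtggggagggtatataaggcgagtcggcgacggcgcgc
Hsp90b1: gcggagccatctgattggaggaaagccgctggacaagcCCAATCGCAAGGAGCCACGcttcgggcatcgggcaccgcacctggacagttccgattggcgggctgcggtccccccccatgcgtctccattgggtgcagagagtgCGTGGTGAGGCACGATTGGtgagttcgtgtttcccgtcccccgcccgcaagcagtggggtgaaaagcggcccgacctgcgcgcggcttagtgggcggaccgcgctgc
Calr: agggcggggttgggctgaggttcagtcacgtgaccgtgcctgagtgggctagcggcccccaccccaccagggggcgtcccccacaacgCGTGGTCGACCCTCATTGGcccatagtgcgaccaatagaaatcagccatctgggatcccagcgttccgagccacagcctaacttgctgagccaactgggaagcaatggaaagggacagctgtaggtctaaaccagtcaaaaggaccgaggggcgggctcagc
Dnajc3: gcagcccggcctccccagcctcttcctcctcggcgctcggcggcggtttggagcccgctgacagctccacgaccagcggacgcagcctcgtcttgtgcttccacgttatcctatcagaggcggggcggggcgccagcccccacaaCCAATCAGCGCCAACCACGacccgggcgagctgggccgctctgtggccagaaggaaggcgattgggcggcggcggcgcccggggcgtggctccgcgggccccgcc

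Counted from the start, the element spanned -65 to -47 in Hspa5 and -105 to -87 in Dnajc3, on the gene's strand. Calr held it on the opposite strand at -162 to -144, and Hsp90b1 held 2, of opposite orientation. The 9 genes with the element had a median difference of 0.29, with 8 positive, beside 0.00 and 50.3% for all genes tested. In 3 of the 9 the groups did not overlap, all higher with G-CSF, beside 5.77% of all genes. The 19 without it had a median of 0.14, with 10 positive and 5 without overlap. Of those 5, Pdia4, Sdf2l1 and Chac1 were higher (beside 5.77% of all genes) and Sel1l and Trib3 lower (beside 5.05%). Since 7 of the 9 genes with the element were chaperones, this split largely repeats the one by branch. A match in the letters is a description of the window and shows neither binding nor a cause.

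The related ER stress element II (ATTGG, any base, then CCACG) was found in Dnajb11 and Herpud1, beside 0.0365% of all windows. The UPR element TGACGTGG was found in 0 member windows, beside 0.676% of all windows. No match found in any member overlapped another.

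**Figure D4:**
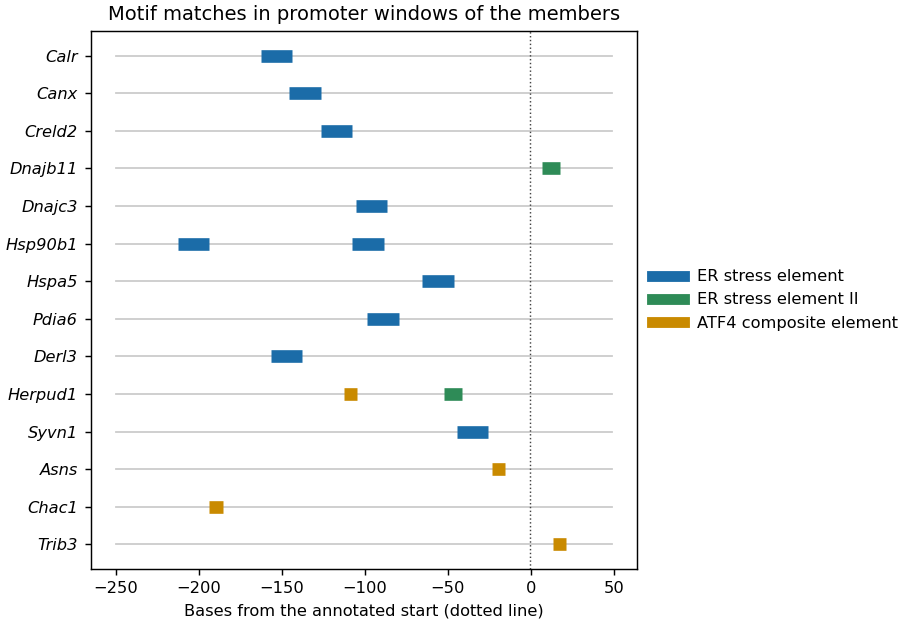
Position of exact motif matches, in bases from the annotated start, in the promoter windows of the 14 members that held at least 1 (grey lines, from 250 bases before to 50 after the start). The ER stress element appears in chaperones and in Derl3 and Syvn1, and the ATF4 composite element in Herpud1, Asns, Chac1 and Trib3.

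ERAD removes misfolded proteins from the ER for destruction by the proteasome. The ubiquitin ligase Syvn1 (HRD1) was at 7.08, 6.47 and 6.79 with PBS and at 7.09, 6.97 and 7.32 with G-CSF, a difference of 0.35 (SE 0.20, adjusted p = 0.932). Its adaptor Sel1l went the other way, from 7.34, 7.31 and 7.21 to 6.86, 7.04 and 7.16, and its groups did not overlap (difference -0.27, SE 0.15, adjusted p = 0.932). The 2 partners of the ligase complex thus had differences of opposite sign. Quantile normalization again made the groups of Sel1l overlap.

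Herpud1, a scaffold of the ligase complex, had the most negative difference of the branch, -0.41 (SE 0.37). Its arrays read 7.79, 6.59 and 6.55 with PBS and 6.34, 6.33 and 7.04 with G-CSF, and PBS replicate 1 alone stood high. Without it the difference was 0.00. Edem1, which acts on misfolded glycoproteins in ERAD, ran from 6.23 to 7.24 with PBS and from 6.59 to 7.26 with G-CSF. The derlins, which help move substrates out of the ER, differed by -0.05 (Derl1, SE 0.25), -0.25 (Derl2, SE 0.23) and 0.02 (Derl3, SE 0.17), each with overlap.

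Of the 3 sensors, Ern1 and Eif2ak3 had small differences and Atf6 a larger negative one. Ern1 was at 7.28, 7.21 and 7.12 with PBS and at 7.13, 7.57 and 7.31 with G-CSF (difference 0.14, SE 0.17). Eif2ak3 was dim, with PBS replicate 3 at 5.15, on the limit of the filter, and the other 5 arrays between 5.80 and 6.27 (difference 0.19, SE 0.30). Atf6 had the most negative difference of all 32 genes, -0.79 (SE 0.40, adjusted p = 0.872). PBS replicate 2 was at 8.74 and the other PBS arrays at 7.56 and 7.28, against 7.31, 7.30 and 6.61 with G-CSF, so the groups overlapped. Without PBS replicate 2 the difference was -0.35.

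Of the transcription factors downstream, Xbp1 was higher on average with G-CSF. It was at 6.84, 7.25 and 6.71 with PBS and at 7.17, 7.73 and 7.51 with G-CSF, overlapping through PBS replicate 2 and G-CSF replicate 1 (difference 0.54, SE 0.22, 95% interval 0.02 to 1.05, adjusted p = 0.797). These gene-level values do not show splicing of its message, by which IRE1 acts. Atf4 had means of 7.35 ± 0.32 and 7.26 ± 0.15 (SD, n = 3; difference -0.09, SE 0.20). Its activity is known to be set by translation, which arrays do not measure.

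ATF4 targets included 1 gene higher and 1 lower without overlap, and 4 with overlap, beside 5.77% higher and 5.05% lower over all genes. Chac1, which degrades glutathione, was at 6.35, 6.03 and 6.14 with PBS and at 6.76, 6.46 and 6.82 with G-CSF, without overlap (difference 0.51, SE 0.17, 1.42-fold, adjusted p = 0.70). Trib3, a pseudokinase that feeds back on ATF4, lay lower in every G-CSF array, at 6.34, 6.54 and 6.35 against 6.20, 6.20 and 5.80 (difference -0.34, SE 0.18, adjusted p = 0.884). These 2 targets had differences of opposite sign, and neither passed limma after adjustment.

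Ddit3 (CHOP, the factor linked to death under prolonged ER stress) lay between 7.43 and 7.54 in the PBS arrays. With G-CSF it was at 7.63, 6.74 and 7.44, so that only replicate 2 was low (difference -0.23, SE 0.24). Ppp1r15a (GADD34, which restores translation by dephosphorylating eIF2 alpha) differed by -0.05 (SE 0.18). Sesn2, a sensor of leucine that restrains mTORC1, was dim and differed by -0.02 (SE 0.15). Asns, the asparagine synthetase gene, varied most within PBS, at 6.45, 7.55 and 8.01, against 6.63, 7.37 and 7.31 with G-CSF (difference -0.23, SE 0.41).

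The ATF4 composite element (TGATGNAA, either strand) was found in 4 of the 28 windows, in Asns, Chac1 and Trib3 among the 6 ATF4 targets and in Herpud1, beside 3.97% of all windows. The Chac1 window is printed because that gene alone of the ATF4 targets was higher in all G-CSF arrays; it lies at chr2:119350992-119351241 (GRCm38.p6, plus strand) and the capitals mark the element, on the opposite strand.
Chac1: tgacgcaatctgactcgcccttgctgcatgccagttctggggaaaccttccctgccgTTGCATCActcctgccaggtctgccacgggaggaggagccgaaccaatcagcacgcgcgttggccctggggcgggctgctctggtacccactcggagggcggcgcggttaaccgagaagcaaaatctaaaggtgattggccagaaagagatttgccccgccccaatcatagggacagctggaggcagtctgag

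Asns and Trib3, with the same element, had differences of -0.23 and -0.34. In Trib3 the match lay after the start.

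**Figure D5:**
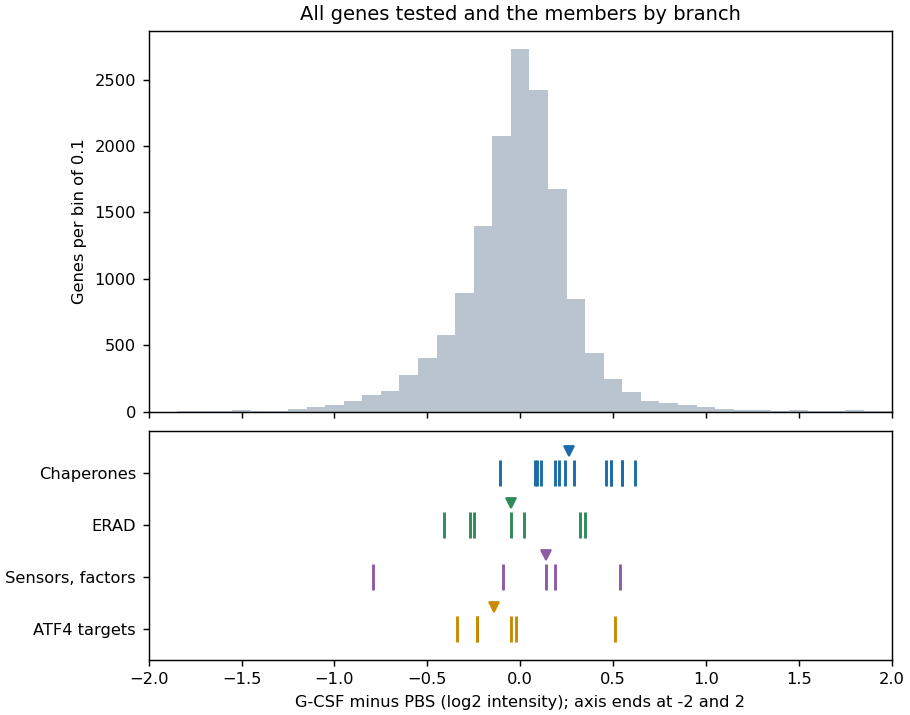
Top, number of genes per bin of 0.1 in the G-CSF minus PBS difference of log2 intensity for the 14994 genes tested (31 genes above 2 and 4 below -2 lie outside the axis). Bottom, the members of each branch as ticks on the same axis, with the branch median as a triangle, at 0.27 for chaperones and -0.14 for ATF4 targets.

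Set among all genes, the chaperones spread widely. Sdf2l1 was exceeded by 2.59% of the 14994 genes, Pdia4 by 3.35%, Dnajc3 by 3.39%, Dnajb11 by 4.16%, Hspa5 by 4.35% and Calr by 4.83%. Hsp90b1, Hyou1, Pdia3 and Dnajb9 were exceeded by 10.8% to 19.1%, and Manf, Pdia6 and Canx by 31.4% to 35.2%. Creld2 was exceeded by 67.4%. Of the other branches, Xbp1 was exceeded by 3.52% and Chac1 by 3.93%. At the lower end, 1.88% of genes had a more negative difference than Atf6 and 9.12% than Herpud1.

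Further genes of the same pathways were taken from lists, of which 152 of 163 entries had a probeset. In the list of other ER folding and glycosylation genes, 20 of 29 tested had a positive difference, beside 50.3% of all genes, with a median of 0.06. Of these, 0 passed limma after adjustment, with 1 higher and 2 lower at an unadjusted p under 0.05 (2.73% and 3.30% of all genes). Txndc11, a thioredoxin-domain protein of the ER, differed by 0.62 (SE 0.16, adjusted p = 0.451) and Txndc5, a disulfide isomerase, by -0.62 (SE 0.22, adjusted p = 0.745), neither with overlap. Without overlap 2 genes of this list were higher and 1 lower, beside 5.77% and 5.05% of all genes.

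The channel that carries new proteins into the ER was represented by 22 translocon and signal peptidase genes, with 11 positive, 11 negative and a median of -0.01. None passed (limma, 2 higher and 0 lower at an unadjusted p under 0.05, beside 2.73% and 3.30% of all genes). Sec61b, a subunit of the channel, was between 8.17 and 8.55 with PBS and between 8.96 and 9.30 with G-CSF (difference 0.74, SE 0.18, adjusted p = 0.378). Sec63, which brings BiP to the channel, differed by 0.63 (SE 0.20, adjusted p = 0.654). Sec61b and Sec63 were the 2 genes of the list higher without overlap, and 0 were lower, beside 5.77% and 5.05% of all genes. These 2 differences were as large as the largest of the chaperones.

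Other ERAD genes had 9 of 19 positive and a median of -0.12. Of these, 0 passed limma, with 0 higher and 1 lower at an unadjusted p under 0.05 (2.73% and 3.30% of all genes). Without overlap 0 were higher and 2 lower, beside 5.77% and 5.05% of all genes. Faf2, which recruits the segregase p97 to the ER, was lower in all G-CSF arrays, at 7.43, 6.98 and 7.41 against 6.13, 6.74 and 6.35 (difference -0.87, SE 0.22, adjusted p = 0.422). Among the 23 other stress sensors and regulators the differences ran from -0.38 to 0.46 with a median of -0.02, and 0 passed (limma, 0 in either direction at an unadjusted p under 0.05). In this list 0 genes were higher and 2 lower without overlap, beside 5.77% and 5.05% of all genes. Creb3 was lower in all G-CSF arrays (difference -0.28, SE 0.16), and Eif2b3 differed by 0.46 (SE 0.26). Eif2ak1, the kinase HRI that phosphorylates eIF2 alpha as PERK does, differed by 0.27 (SE 0.16).

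Other genes of the ATF4 pathway, 35 in all, had 19 positive differences and a median of 0.02. Of these, 0 passed limma, with 1 higher and 1 lower at an unadjusted p under 0.05 (2.73% and 3.30% of all genes). Without overlap 4 were higher and 1 lower, beside 5.77% and 5.05% of all genes. Vldlr, the receptor for very low density lipoprotein, stood apart at 7.16, 7.28 and 6.37 with PBS and 9.57, 9.98 and 9.26 with G-CSF. Its difference of 2.67 (SE 0.30) had an adjusted p of 0.0627. Sesn1, of the same family as Sesn2 and known as a p53 and FOXO target, was lower in all G-CSF arrays (difference -0.78, SE 0.28, adjusted p = 0.749). Nupr1, a stress-induced chromatin protein, differed by 0.79 (SE 0.36), with G-CSF replicate 2 at 8.65 and the lowest G-CSF array at 7.16, just above the highest PBS array at 7.15.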

How the data were processed

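KSL SLAM cells of 3 PBS and 3 G-CSF pools were measured on arrays. The values the authors deposited are intensities on a linear scale (2.7 to 19069), made with RMA, per the submitters' processing notes (software not given in the sources used here). Log2 was taken here before any test. Depth is not defined for arrays, and 3 per group limit the precision.

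Of 35554 probesets, 21789 had 1 gene symbol in the platform annotation, 1621 several and 12144 none listed. The dimmest 25% of those with 1 symbol (mean log2 up to 5.15, no measured background) were left out, and the brightest probeset stood for a gene. Limma 3.58.1 (R 4.3.3, lmFit and eBayes, no covariate) was fitted to all 14994 genes, with Benjamini-Hochberg adjustment and two-sided tests, and was checked on simulated data. Pools are said to be independent, so the p-values weigh each difference against the spread between pools, moderated across genes by eBayes.

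All members, and up to 3 genes with the smallest p in each list of further pathway genes, were open to naming. Members, lists, motifs and counts without overlap were chosen with earlier results of these data known, so lists get counts and medians and no p-value. List entries were matched by symbol or through RefSeq synonyms. Alternatives changed the filter, normalization, variance model, array weights, probeset rule, replicate block and arrays left out. Figures were drawn with matplotlib 3.10.9.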

Additional observations from a re-analysis of the deposited data

How the results depend on the processing

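In all alternatives 0 members passed limma (30 of 32 were tested with the dimmest 50% left out); their 446 values had an adjusted p of at least 0.442, and 424 kept direction. The other 22 changed sign, each on leaving out 1 array, in 14 members. Their ranges were -0.01 to 0.18 for Canx, -0.01 to 0.32 for Pdia3, -0.08 to 0.40 for Pdia6, -0.20 to 0.35 for Manf, -0.36 to 0.08 for Creld2, -0.18 to 0.52 for Dnajb9, -0.23 to 0.21 for Derl1, -0.09 to 0.13 for Derl3, -0.14 to 0.41 for Eif2ak3, -0.28 to 0.02 for Atf4, -0.41 to 0.04 for Ddit3, -0.19 to 0.06 for Ppp1r15a, -0.68 to 0.10 for Asns and -0.08 to 0.03 for Sesn2.

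Members without overlap, a count chosen after seeing the data, were 6 to 11 higher (11 without G-CSF replicate 1) and 2 to 5 lower (5 without PBS replicate 1) with 1 array left out. They were 5 higher with arrays centred on the median (4.94% of all genes) and 1 lower with quantile normalization again (5.15% of all genes). Fewer arrays separate more genes by construction (9.88% to 11.2% of all genes higher and 9.10% to 11.6% lower). The 11.6% was that without PBS replicate 1. All genes past the threshold were 4, or 12 with quantile normalization again, 2 with arrays centred on the median and 6 with limma's trend and robust options. With 1 array left out they were 0 to 6 (6 without G-CSF replicate 1, 0 without any other), and 799 to 1032 genes had an unadjusted p under 0.05. The median of all genes was -0.02 with the dimmest 50% left out and with centring. The cause was not tested. The labels do not say that replicate numbers pair arrays: same-number deviations correlated by 0.29, 0.02 and 0.19, and 5 of 6 arrays correlated best with their own number. With the replicate block 0 members and 5 genes passed.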

Other observations

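Chaperones of the cytosol and mitochondria, outside the ER, gave 10 positive and 11 negative differences among 21 genes, with a median of -0.02. Of these, 0 passed limma, with 1 higher and 2 lower at an unadjusted p under 0.05 (2.73% and 3.30% of all genes). Without overlap 2 were higher, Hsph1 among them, and 2 lower, beside 5.77% and 5.05% of all genes. Hsph1, of the HSP110 family, was at 7.61, 6.99 and 7.41 with PBS and at 7.85, 7.77 and 8.09 with G-CSF (difference 0.56, SE 0.21, adjusted p = 0.749). The J-domain protein Dnajb4 lay lower in all G-CSF arrays, at 7.88, 7.20 and 7.45 against 6.64, 6.94 and 6.90 (difference -0.68, SE 0.21, adjusted p = 0.613). Trap1, the mitochondrial HSP90, was lower too in each G-CSF array (difference -0.53, SE 0.21, adjusted p = 0.766). Whether this list differed from the ER chaperones was not tested.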
